A study of Mus musculus with 12 samples.

Results

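Of the 17875 genes in the deposited tables, 10 were chosen by their symbols: Tfrc, Steap3, Slc11a2, Slc39a14, Fth1, Ftl1, Slc40a1, Aco1, Ireb2 and Hmox1. They take up, store and export iron, sense it, and release it from heme. They were chosen because Tfrc and Hmox1 showed contrasting patterns over the groups of these same libraries, so the levels and fold changes of those genes are given as a description, with no test. The other 8 genes were added by function and are tested.

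The libraries were made from subcutaneous colorectal tumours in mice, in 4 groups of 3. Control mice carried the tumour alone, stress mice carried the tumour and were kept under chronic stress, and the low-dose and high-dose mice carried the tumour, were likewise under chronic stress and were given the Chinese herbal decoction Xiao-chai-hu (XCHT). The labels name no mouse strain, sex, age, tumour cell line, stress procedure or dose in numbers, and the control mice share the tumour with every other group. Nothing in the labels says that the libraries of a group came from separate mice, so p-values measure only the spread between libraries, part of which may be technical.

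Iron reaches most cells bound to transferrin, which the transferrin receptor Tfrc carries into endosomes. There Steap3 reduces the iron, and Slc11a2 or Slc39a14 moves it into the cytosol. Surplus iron is stored in ferritin, a shell of Fth1 and Ftl1 chains, or leaves the cell through ferroportin, Slc40a1. Heme is opened by the inducible heme oxygenase Hmox1, which frees its iron, and macrophages that clear red blood cells are known for high Hmox1 and Slc40a1. Aco1 and Ireb2 encode the iron regulatory proteins. When iron is scarce they bind hairpins called iron-responsive elements, which blocks translation of ferritin and ferroportin messages and protects the Tfrc message from decay. RNA sequencing reads the second of these effects and not the first.

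The elements are shown because they set apart the members whose messages the sensors are known to bind. The coding transcripts of GENCODE M21 (GRCm38) were searched on the transcribed strand for a C, a 5-base arm, the loop CAGTGN with any last base but G, and a 5-base arm that pairs with the first, G-T pairs allowed. Each run below is written 5′ to 3′ as DNA with the loop in capitals and 6 bases on each side of the stem where they fit.
Fth1, 5′ UTR: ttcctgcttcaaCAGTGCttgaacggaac
Ftl1, 5′ UTR: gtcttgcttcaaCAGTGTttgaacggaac
Slc40a1, 5′ UTR: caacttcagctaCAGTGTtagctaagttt
Tfrc, 3′ UTR, element 1: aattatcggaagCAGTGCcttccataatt
Tfrc, 3′ UTR, element 2: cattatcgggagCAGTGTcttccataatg
Tfrc, 3′ UTR, element 3: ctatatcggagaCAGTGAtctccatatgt
Tfrc, 3′ UTR, element 4: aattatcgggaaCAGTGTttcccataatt
Slc11a2, 3′ UTR: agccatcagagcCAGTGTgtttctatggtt

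The ferritin and ferroportin hairpins lie in exon 1: Fth1 at chr19:9982732-9982760 on the plus strand, Ftl1 at chr7:45459779-45459807 on the minus strand and Slc40a1 at chr1:45925465-45925493 on the minus strand. The 4 Tfrc hairpins lie in exon 19, with stems that start between base 889 and base 1380 of a 3′ UTR of 2458 bases, and run from chr16:32631219-32631247 to chr16:32631710-32631738 on the plus strand. The Slc11a2 hairpin, at chr15:100395152-100395181 on the minus strand in exon 16, was found only when 1 unpaired base was allowed in the 3′ arm. The hairpins were in 4 of 5 coding transcripts of Fth1, 1 of 2 of Ftl1, 1 of 4 of Slc40a1, 1 of 3 of Tfrc and 1 of 6 of Slc11a2. With fully paired arms the pattern was in the 5′ UTR of 22 of 16925 genes (0.13%) and in the 3′ UTR of 91 of 17003 (0.535%). With 1 unpaired base allowed it was in 54 (0.319%) and 240 (1.41%). A match is a description of letters, and a hairpin that departs from the pattern is missed, so the hairpins shown may not be all. In the other members the pattern was not found.

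Per library, 16734741 to 17950195 counts fell on the genes of the tables, and 15476 to 15775 genes had a count above 0. Levels are given as TPM, which are scaled for gene length and library size. Fold changes are log2 values from edgeR's quasi-likelihood model of the counts, with their standard error (SE). A gene was called at a Benjamini-Hochberg adjusted p under 0.05 over 13453 genes. Of the colorectal epithelial list, Sox9 ran from 46.2 to 92.4 TPM and Cdh1 from 1.71 to 6.46 TPM. Epcam reached at most 0.84, Krt8 0.13, Krt18 0.10, Krt20 0.12 and Lgr5 0.04, so these defining markers were at or near 0 in the tissue labelled colorectal cancer.

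Tfrc, the receptor for transferrin-bound iron, was highest in the stress libraries. Its TPM was 29.1, 32.8 and 19.6 in the control libraries and 41.2, 46.3 and 96.5 in the stress libraries. It was 19.2, 12.6 and 30.1 at the low dose and 20.6, 17.2 and 26.6 at the high dose. All 3 stress libraries lay above every library of the other groups, and stress replicate 3 lay far above the rest. The group means were 27.2 ± 6.77 in control, 61.3 ± 30.6 in stress, 20.6 ± 8.85 at the low dose and 21.4 ± 4.74 at the high dose (SD, n = 3).

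The fitted log2 fold change of Tfrc was 1.19 (SE 0.37) in stress against control, a fold of 2.28. It was -1.43 (SE 0.37) at the low dose against stress and -1.53 (SE 0.38) at the high dose against stress, which are 2.70-fold and 2.89-fold lower levels. Both dose comparisons use the same stress libraries. Without stress replicate 3 the 3 values were 0.69 (SE 0.30), -0.92 (SE 0.30) and -1.02 (SE 0.30), and leaving out any other library gave -1.83 to -1.21 at the low dose. Against control, the low dose differed by -0.24 (SE 0.37) and the high dose by -0.34 (SE 0.37), within about 1 SE of no difference.

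Hmox1, the inducible heme oxygenase, had another pattern: control and stress libraries overlapped, and the highest levels were under XCHT. Its TPM was 41.3, 61.4 and 48.5 in control and 46.2, 67.2 and 31.8 in stress. It was 97.3, 93.4 and 69.0 at the low dose and 221, 119 and 51.3 at the high dose. All 3 low-dose libraries lay above all control and stress libraries, the nearest stress library being replicate 2. High-dose replicates 1 and 2 lay above every other library, and high-dose replicate 3 within the control and stress range.

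The fitted log2 fold change of Hmox1 was -0.06 (SE 0.45) in stress against control, 1.01 (SE 0.45) at the low dose against stress and 1.44 (SE 0.45) at the high dose against stress. The last 2 are folds of 2.02 and 2.71. Without high-dose replicate 1 the high-dose value was 0.85 (SE 0.39). The doses differed from each other by 0.42 (SE 0.44), a value that turned to -0.17 without that library.

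**Figure D1:**
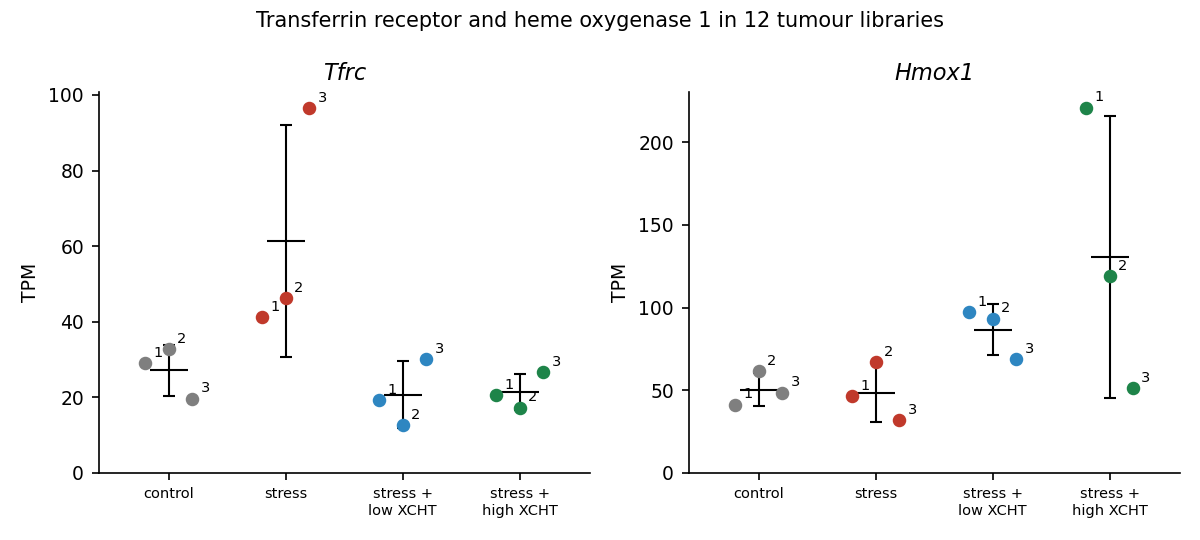
TPM of Tfrc (left) and Hmox1 (right) in each library, by group on the horizontal axis. Points are libraries with their replicate number, and bars are the mean ± SD of 3 libraries. Tfrc in the stress libraries runs from 41.2 to 96.5, above all others, and Hmox1 reaches 221 in high-dose replicate 1.

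The log2 ratio of Tfrc to Hmox1 TPM within a library shows both genes at once. It was -0.50, -0.91 and -1.30 in control and -0.17, -0.54 and 1.60 in stress. It was -2.34, -2.89 and -1.20 at the low dose and -3.43, -2.79 and -0.95 at the high dose. The stress libraries all lay above the libraries of both doses. Stress and control overlapped by a narrow margin, since stress replicate 2 lay just below control replicate 1. Both genes were chosen for contrasting patterns in these libraries, so nothing is read from the separation of their ratio.

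Of the 8 tested members, none was called in any of the 6 comparisons. The share called among all 13453 genes was 0% in each comparison as well, so the members did not differ from the background in this. At an unadjusted p under 0.05 there were 0 of the 8 members and 383 of all genes in stress against control, 3 and 1796 at the low dose against stress, and 0 and 191 at the high dose against stress. There were 0 and 860 at the high dose against the low dose, 2 and 1773 at the low dose against control, and 1 and 140 at the high dose against control. The low-dose shares were 37.5% of members beside 13.4% of all genes against stress, and 25% beside 13.2% against control. Those members were Fth1 and Ftl1, and against stress also Ireb2. The low-dose libraries include replicate 2, with the trend in transcript length described below. At the high dose against control the share was 12.5%, Slc40a1 alone, beside 1.04%. DESeq2 called none of the 8 either, and called 1, 95, 0, 5, 71 and 1 genes in all in these comparisons.

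Separation of single libraries was counted on CPM with TMM scaling, which is not divided by gene length. In stress against control, Tfrc was the 1 member whose stress libraries all lay higher, where 7.08% of all genes did, and no member had them all lower, where 7.02% did. At the low dose against stress, Hmox1 and Steap3 were separated upward, beside 5.37% of all genes, and Tfrc and Ireb2 downward, beside 6.57%. At the high dose against stress no member was separated upward, beside 2.43%, and Tfrc downward, beside 3.32%. Against control, the low-dose libraries lay higher for Hmox1, Ftl1 and Steap3, beside 7.65% of all genes, and the high-dose libraries for Slc40a1, beside 3.77%. Tfrc and Hmox1 were chosen on these libraries, so nothing is read from their separation.

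Among the other uptake genes, Steap3, the endosomal ferrireductase, ran from 18.1 to 28.5 TPM over all libraries. Its low-dose libraries, at 23.1, 23.2 and 21.8 TPM, lay close together and overlapped the stress libraries, at 21.7, 19.9 and 22.1 TPM, on this scale. The log2 fold change was 0.27 (SE 0.16, adjusted p = 0.46 by edgeR's quasi-likelihood test) at the low dose against stress and 0.17 (SE 0.16) at the high dose against stress.

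Slc11a2, the divalent metal transporter DMT1, and Slc39a14, the transporter ZIP14, stayed within narrow ranges in control and stress. Slc11a2 ran from 23.1 to 24.9 TPM in those 6 libraries and from 18.3 to 27.5 under XCHT. Slc39a14 ran from 30.1 to 38.2 TPM in control and stress, and low-dose replicate 3 stood highest at 51.2. Their log2 fold changes were 0.02 (SE 0.15) and -0.07 (SE 0.21) in stress against control. At the low dose against stress they were 0.00 (SE 0.15) and 0.20 (SE 0.21), and Slc39a14 turned to -0.16 without the 3 libraries rich in skeletal muscle transcripts, which include low-dose replicate 3. None was called.

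Ferritin held the 2 highest levels among the members. Fth1, the heavy chain with the ferroxidase site, had 1795, 1747 and 1962.5 TPM in control and 1867, 2343 and 1519 in stress. It had 2565, 3043 and 1743 TPM at the low dose and 2653, 1926 and 1871 at the high dose. Low-dose replicates 1 and 2 and high-dose replicate 1 lay above all control and stress libraries, and low-dose replicate 3 lay just below the control range.

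Ftl1, the light chain, had 1902, 1985 and 2195 TPM in control and 1938, 2532 and 1832 in stress. It had 2527, 4079 and 2213 TPM at the low dose and 2681, 2630 and 2026 at the high dose. Low-dose replicate 2 stood highest for both chains. Ftl1 counts were not whole numbers in any of the 12 libraries, as happens when reads are shared between near-identical copies, so its level is uncertain; the counts of the other 9 members were whole in all 12.

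At the low dose against stress, the log2 fold change was 0.56 (SE 0.23, adjusted p = 0.347) for Fth1 and 0.70 (SE 0.26, adjusted p = 0.319) for Ftl1 by edgeR's quasi-likelihood test. Without low-dose replicate 2 they were 0.26 (SE 0.20) and 0.27 (SE 0.17). At the high dose against stress they were 0.18 (SE 0.23) and 0.23 (SE 0.26), and in stress against control 0.05 for both, with the same errors. The ratio of Fth1 to Ftl1 TPM ran from 0.732 to 1.02 over the libraries.

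A trend with transcript length set low-dose replicate 2 apart and, less so, low-dose replicate 3. In low-dose replicate 2 a gene's deviation from its mean over libraries correlated with log2 transcript length at r = -0.46 across genes, in low-dose replicate 3 at -0.14, in low-dose replicate 1 at 0.06, and in the libraries of the other groups at -0.03 to 0.24. Genes are not independent replicates, so this describes each library. The Fth1 and Ftl1 transcripts, at 1494 and 968 bases, are the shortest of the members, Ireb2, at 5770, the longest. With the trends in length and GC content removed, the low-dose values against stress were 0.38 (SE 0.20) for Fth1, 0.42 (SE 0.18) for Ftl1, -0.19 (SE 0.07) for Ireb2, -1.35 (SE 0.38) for Tfrc and 0.85 for Hmox1.

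The sensors Ireb2 and Aco1 were expressed in every library. Ireb2, which is degraded when iron is plentiful, had 42.8, 38.9 and 39.5 TPM in control and 44.9, 41.8 and 43.5 in stress. It had 40.9, 24.7 and 29.8 TPM at the low dose and 39.5, 33.1 and 44.1 at the high dose. All low-dose libraries lay below all stress libraries, replicate 1 by a narrow margin.

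The log2 fold change of Ireb2 was -0.34 (SE 0.12, adjusted p = 0.313 by edgeR's quasi-likelihood test) at the low dose against stress, 0.11 (SE 0.12) in stress against control and -0.17 (SE 0.12) at the high dose against stress. Without low-dose replicate 1 the low-dose value was -0.46 (SE 0.11) and was called, at an adjusted p of 0.0292, when 9.12% of 13636 genes were called. The low-dose libraries then left, replicates 2 and 3, were those set apart by the trend with length, and Ireb2 is the longest member. Aco1, the sensor that is a cytosolic aconitase when it holds its iron-sulfur cluster, ran from 13.4 to 24.2 TPM. Low-dose replicate 2 was lowest for both sensors. The log2 fold change of Aco1 at the low dose against stress was -0.08 (SE 0.12).

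Slc40a1, the iron exporter ferroportin, was the least abundant member, with 4 to 111 counts per library. Its TPM was 0.18, 0.20 and 0.32 in control and 0.47, 0.21 and 0.60 in stress. It was 0.73, 0.67 and 0.13 at the low dose and 3.59, 0.39 and 0.41 at the high dose. High-dose replicate 1 stood above all other libraries, and the remaining high-dose libraries lay within the stress range and just above the control range.

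The log2 fold change of Slc40a1 was 1.78 (SE 0.85, adjusted p = 0.9998 by edgeR's quasi-likelihood test) at the high dose against stress and 2.66 (SE 0.90) at the high dose against control. Without high-dose replicate 1 these values were -0.06 (SE 0.67) and 0.82 (SE 0.70). The size of both values thus rested on 1 library.

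**Figure D2:**
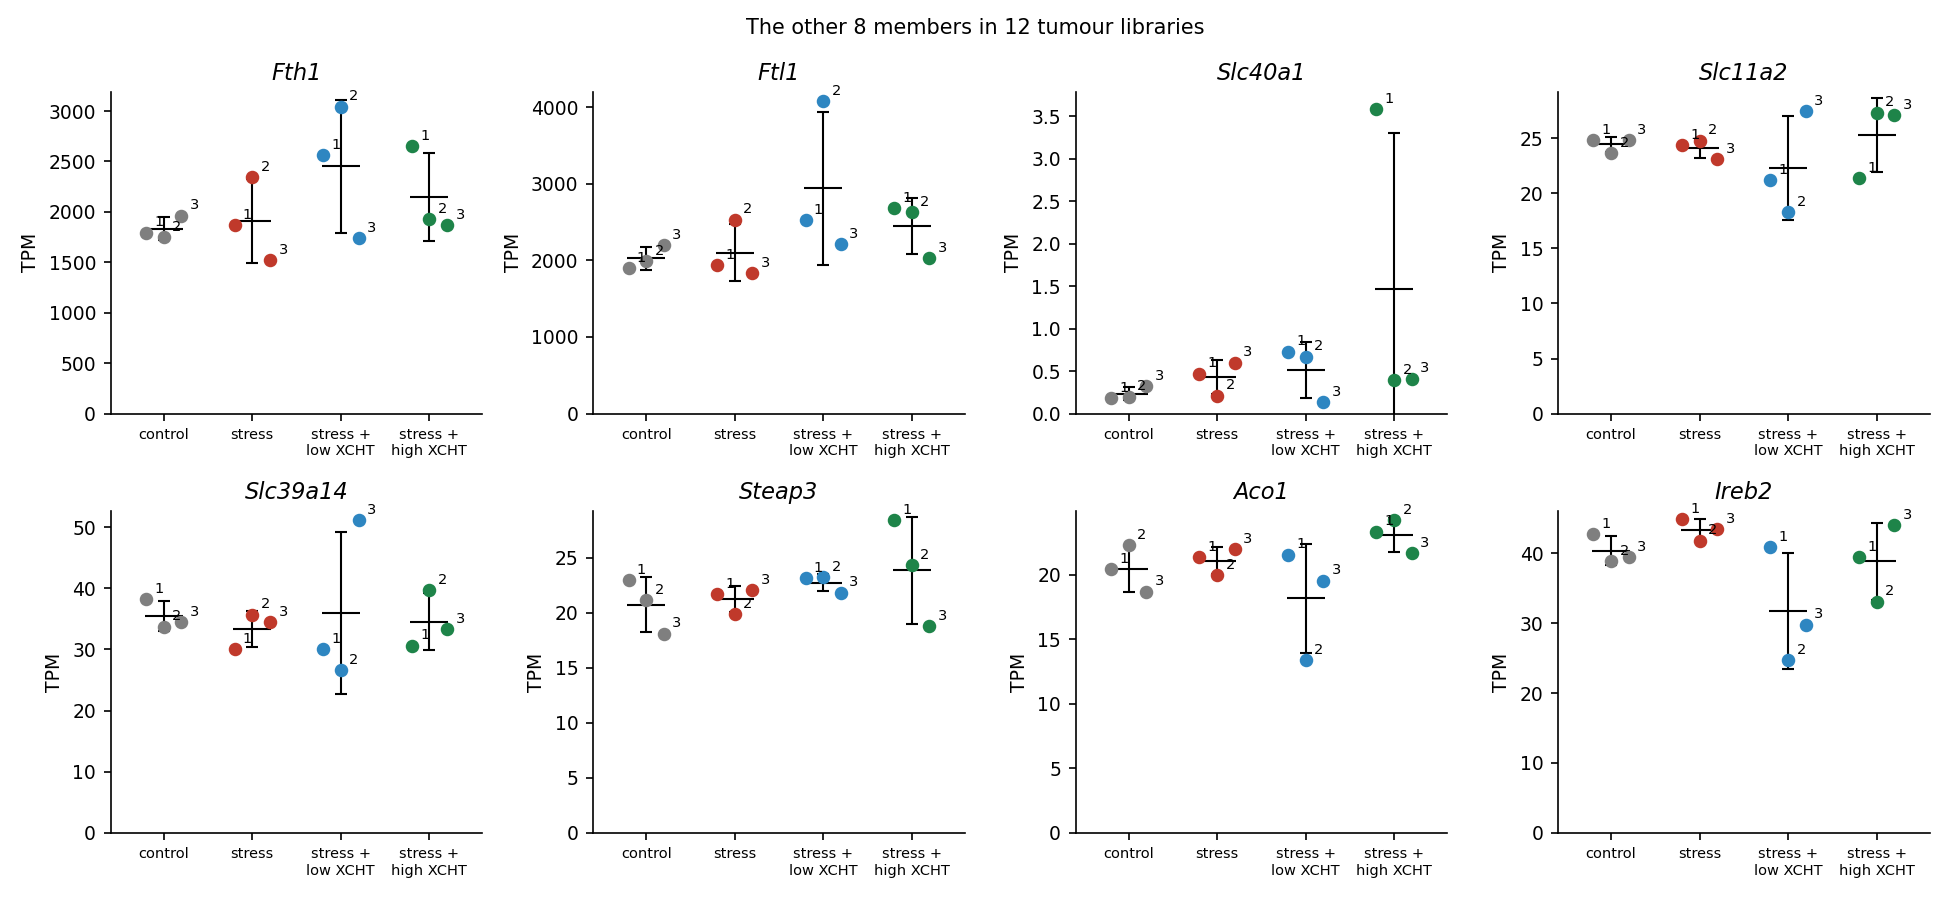
TPM of the 8 tested members in each library, by group. Points are libraries with their replicate number, and bars are the mean ± SD of 3 libraries, cut off at 0 for Slc40a1 at the high dose. Low-dose replicate 2 is highest for Fth1 and Ftl1 and lowest for Ireb2 and Aco1, and high-dose replicate 1 is highest for Slc40a1, at 3.59.

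**Figure D3:**
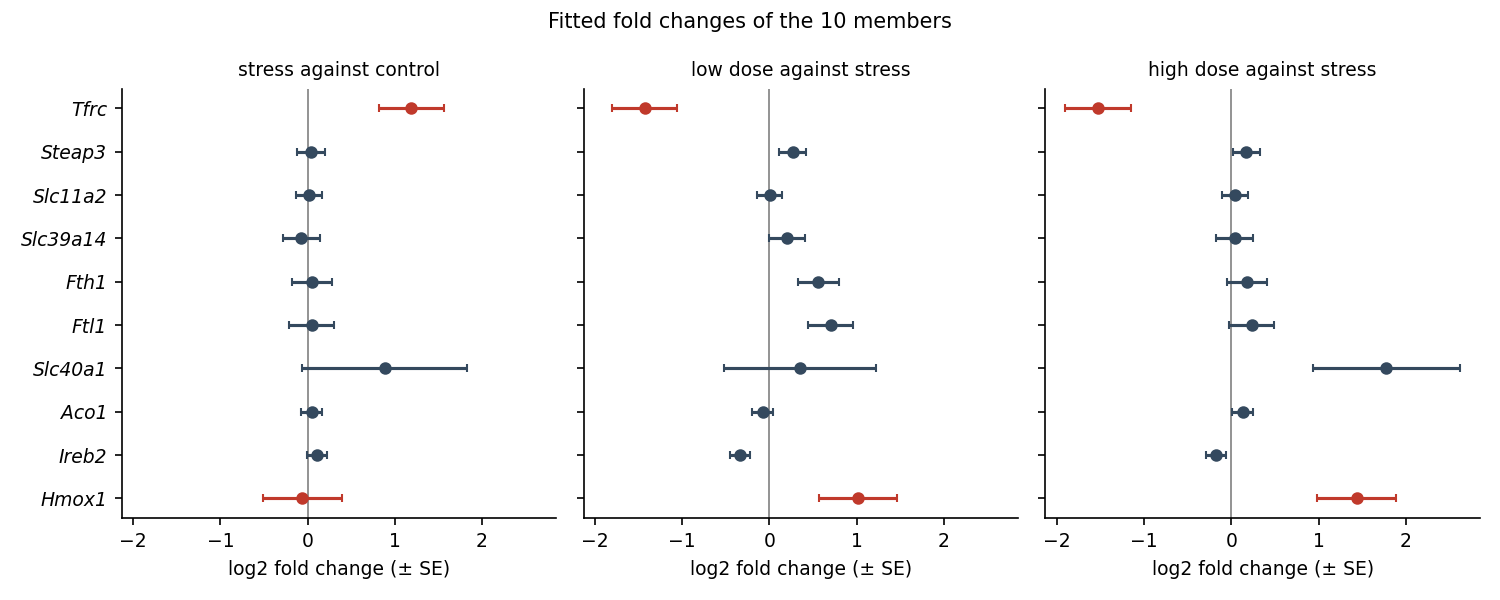
Fitted log2 fold changes of the 10 members in 3 comparisons, ordered by role from uptake to heme breakdown. Points are estimates, bars 1 SE, and the chosen genes Tfrc and Hmox1 are red. Tfrc lies at 1.19, -1.43 and -1.53, and in stress against control the bars of all the other members reach 0.

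Red blood cell transcripts were highest in high-dose replicate 1, the library with the highest Hmox1 and Slc40a1. The 4 hemoglobin chains summed to 1608 TPM in high-dose replicate 1 and to 45.6 to 266.5 TPM in the other 11 libraries. Alas2, the first enzyme of heme synthesis in red cell precursors, was 3.77 TPM there and at most 0.55 elsewhere. Of the red blood cell list, Slc4a1, Epb42 and Rhag were at 0.10 TPM or less in all libraries. In bulk tissue, fewer cells of a type and less RNA per cell cannot be told apart.

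The 15 macrophage genes summed to 5354 TPM in low-dose replicate 1 and 4659 in high-dose replicate 1, and to 2070 to 3702 TPM in the other libraries. High-dose replicate 2, next after high-dose replicate 1 for Hmox1, had 2414, below 9 of the other libraries. Stress replicate 3, which had more Slc40a1 than the other stress libraries, had the lowest sum, 2070. Cd68 ran from 71.1 to 150 TPM, and Cd163, the receptor for hemoglobin bound to haptoglobin, from 0.08 to 1.99. Vsig4, Timd4 and Marco were at 1.46 TPM or less. Low-dose replicate 1, with the largest macrophage sum, had less Hmox1 than both upper high-dose libraries. At 0.73 TPM it had more Slc40a1 than all libraries but high-dose replicate 1. The latter had the next largest macrophage sum and the highest Hmox1 and Slc40a1. Much of the sum was Lyz2, at 3156 TPM in low-dose replicate 1. These single libraries thus go both ways, and the relation was not tested.

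With a red blood cell score as a covariate, the high-dose value against stress was 0.88 (SE 0.31) for Hmox1, 0.58 (SE 0.59) for Slc40a1 and -1.44 (SE 0.39) for Tfrc. That score, built from 4 hemoglobin genes, was 3.14 in high-dose replicate 1 and -1.86 to 0.59 in the other libraries. The fit therefore cannot tell red blood cell content from anything else particular to that library. The parts of red blood cell and macrophage content in these values were not tested. Skeletal muscle transcripts were high in control replicate 1, low-dose replicate 3 and high-dose replicate 2, at 256 to 691 TPM for 12 genes against 6.52 to 59.1 elsewhere. Without those libraries Tfrc stood at 1.23 (SE 0.39), -1.83 (SE 0.41) and -1.42 (SE 0.40) in the same order of comparisons as before.

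**Figure D4:**
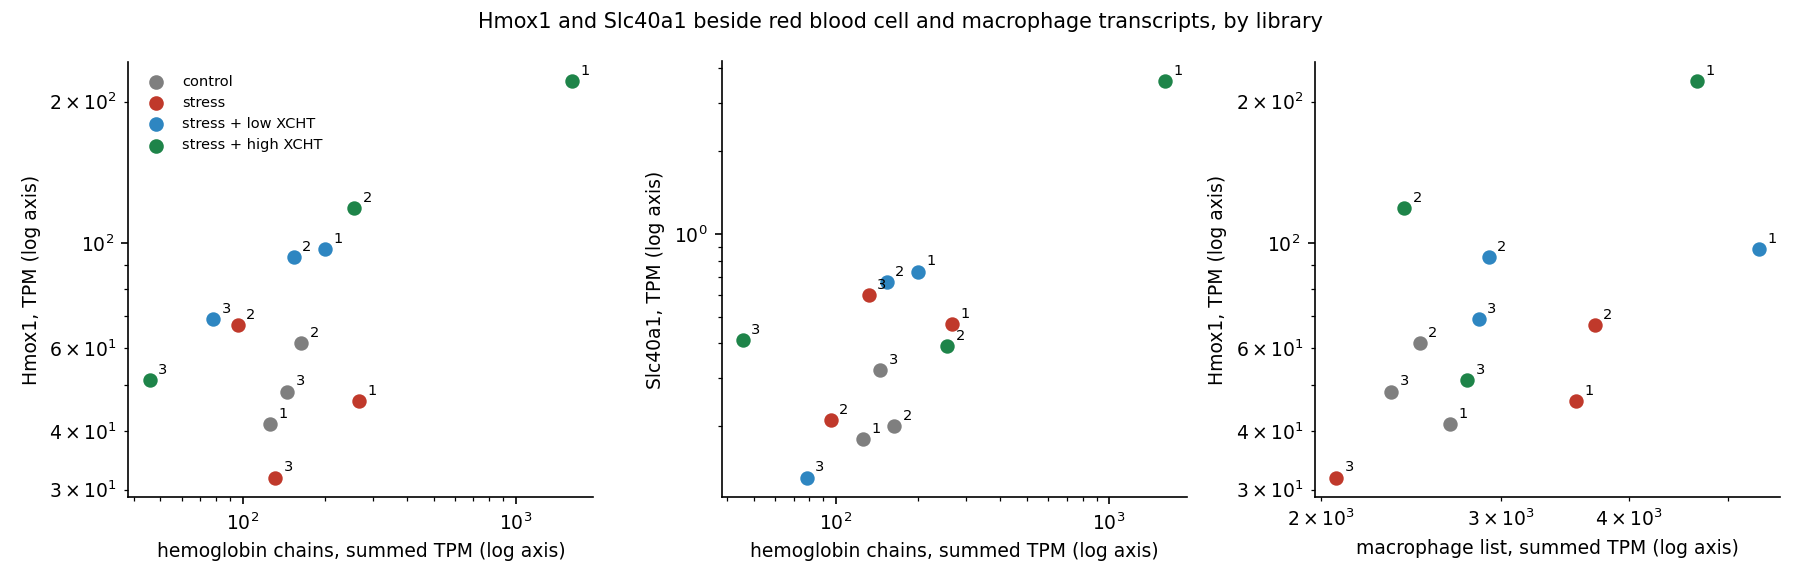
Hmox1 and Slc40a1 TPM against the summed TPM of 4 hemoglobin chains (left and middle), and Hmox1 against the summed TPM of 15 macrophage genes (right), on log axes. Each point is a library, coloured by group, with its replicate number. High-dose replicate 1 stands alone at 1608 TPM of hemoglobin chains, with the highest Hmox1 and Slc40a1.

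The order of the members by level was much the same in each group. Ftl1 and Fth1 came first and Slc40a1 last in all 4, and the ranges of Ftl1 and Fth1 overlapped in every group. After the ferritins came Hmox1 in control and at both doses, and Tfrc in stress, with Tfrc at 61.3 ± 30.6 and Hmox1 at 48.4 ± 17.8 TPM (SD, n = 3), whose ranges overlapped. Tfrc had rank 6 in control, 8 at the low dose and 9 at the high dose. At the high dose its range, 17.2 to 26.6 TPM, overlapped those of Slc11a2, Steap3 and Aco1.

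The genes most like Tfrc were searched among 12107 tested genes outside the lists with a mean TPM of at least 1, by Pearson's r of log2 CPM over the 12 libraries. They were Dnajc27 (r = 0.87, Spearman's rho 0.89), Armc10 (0.87 and 0.82), Prepl (0.85 and 0.78), Sntb2 (0.85 and 0.77) and Anapc1 (0.85 and 0.76). All 5 were highest in stress replicate 3 and lowest in low-dose replicate 2, as Tfrc was. Without the 2 libraries farthest from the median, which left 10, r was 0.65 to 0.84.

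Among those most like Hmox1 were Rhog (r = 0.89, rho 0.85), Plau (0.87 and 0.80), Ebpl (0.87 and 0.84) and Tspan3 (0.85 and 0.76). These 4 were highest in high-dose replicate 1, and r was 0.72 to 0.89 over 10 libraries. These values are the extremes of a search over many genes and share their libraries, so they are a description.

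Around the members, 102 other iron and heme genes were listed, of which 90 were tested, and none was called in any comparison by edgeR's quasi-likelihood test or DESeq2. Their median log2 fold change was 0.01 in stress against control, 0.09 at the low dose against stress and 0.02 at the high dose against stress, beside 0.01, 0.00 and 0.00 over all genes. At an unadjusted p under 0.05 there were 3, 12 and 1 of the 90 (3.33%, 13.3% and 1.11%), beside 2.85%, 13.4% and 1.42% of all genes, so the list's shares were near the background. At the low dose against stress 60 had values above 0 and 30 below, beside 6717 and 6736 of all genes. At the high dose against the low dose 26 were above and 64 below, beside 6834 and 6619 of all genes. Both comparisons share the low-dose libraries, which include replicate 2 with its trend in transcript length.

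In stress against control, the 4 genes of this list with the smallest p-values were Neo1, Id1, Heph and Pgrmc1, none of which passed. Neo1, a co-receptor for hemojuvelin, had -0.32 (SE 0.13), and Id1, a target of BMP signalling, -0.56 (SE 0.25). Heph, the ferroxidase hephaestin, had 1.15 (SE 0.52) at 0.36 to 0.69 TPM in control and 0.81 to 1.57 in stress. Pgrmc1, a heme-binding membrane protein, had -0.31 (SE 0.14). The adjusted p of all 4 was 0.9999 by edgeR's quasi-likelihood test.

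At the low dose against stress they were Bola2, Nfu1, Tmem14c and Lrp1, which come from different lists, and none passed. Bola2, which works with Glrx3 as a cytosolic iron chaperone, had 0.77 (SE 0.26), Nfu1, a late iron-sulfur carrier of mitochondria, 0.32 (SE 0.11), and Tmem14c, a porphyrin transporter of the inner mitochondrial membrane, 0.32 (SE 0.11). Lrp1, the receptor for heme bound to hemopexin, had -0.51 (SE 0.18). Their adjusted p ran from 0.304 to 0.316 by edgeR's quasi-likelihood test. Lrp1 was 101 and 103 TPM in low-dose replicates 2 and 3 and 160 to 235 in stress, with low-dose replicate 1 in that range at 178.

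Without low-dose replicate 1, 10 of 91 genes of the list were called at the low dose against stress and 4 of 91 at the low dose against control, when 9.12% and 4.78% of all genes were called. Against stress, 7 were higher, Ciao2b, Bola2, Glrx3, Smad7, Hspa9, Glrx5 and Nfu1, and 3 lower, Hfe, Lrp1 and Trf. Against control Bola2, Ciao2b, Glrx5 and Glrx3 were higher. These genes are named after their values were seen. Ciao2b, Nfu1, Glrx5 and Hspa9 serve iron-sulfur cluster assembly, and Trf is transferrin, the ligand of Tfrc. The list's shares were near those of all genes, so no theme is read from these calls. The low-dose libraries left, replicates 2 and 3, had length correlations of -0.46 and -0.14, and replicate 3 was rich in skeletal muscle transcripts.

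Of the same list at the high dose against stress, Neo1 had 0.29 (SE 0.13), Uros, the uroporphyrinogen synthase of the heme pathway, 0.39 (SE 0.20), Pgrmc1 0.28 (SE 0.14) and Blvrb, a biliverdin reductase, 0.32 (SE 0.18). At the high dose against the low dose, Fbxl5, the ubiquitin ligase subunit that senses iron and marks Ireb2 for decay, had -0.22 (SE 0.09), Alas1, the first enzyme of heme synthesis outside red cells, -0.42 (SE 0.18), Lrp1 0.41 (SE 0.18) and Neo1 0.28 (SE 0.13). None passed.

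Against control, Iba57, a mitochondrial iron-sulfur assembly factor, had 0.49 (SE 0.15) at the low dose and 0.33 (SE 0.15) at the high dose. Skp1a, a subunit of the ligase that holds Fbxl5, had 0.27 (SE 0.09) and 0.16 (SE 0.09). At the low dose Tmem14c had 0.34 (SE 0.11) and Bola2 0.75 (SE 0.26). At the high dose Slc48a1, a heme transporter of the lysosome, had 0.39 (SE 0.22) and Blvra, the main biliverdin reductase, 0.19 (SE 0.12). None passed.

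Other enzymes that act with Hmox1 had narrower ranges than Hmox1 itself. Hmox1 was chosen for its pattern over these same libraries, so nothing is read from that contrast. Hmox2, the constitutive heme oxygenase, ran from 75.8 to 95.8 TPM, a range of 1.26-fold against 6.95-fold for Hmox1. The ratio of Hmox1 to Hmox2 TPM was 0.373 to 0.881 in the control and stress libraries, 0.866 to 1.07 at the low dose and 2.31, 1.48 and 0.61 at the high dose. Blvra ran from 39.7 to 50.5 TPM and Blvrb from 84.2 to 145. In the ferritin pathway Ncoa4, the receptor that delivers ferritin for breakdown, ran from 41.3 to 70.5 TPM.

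**Figure D5:**
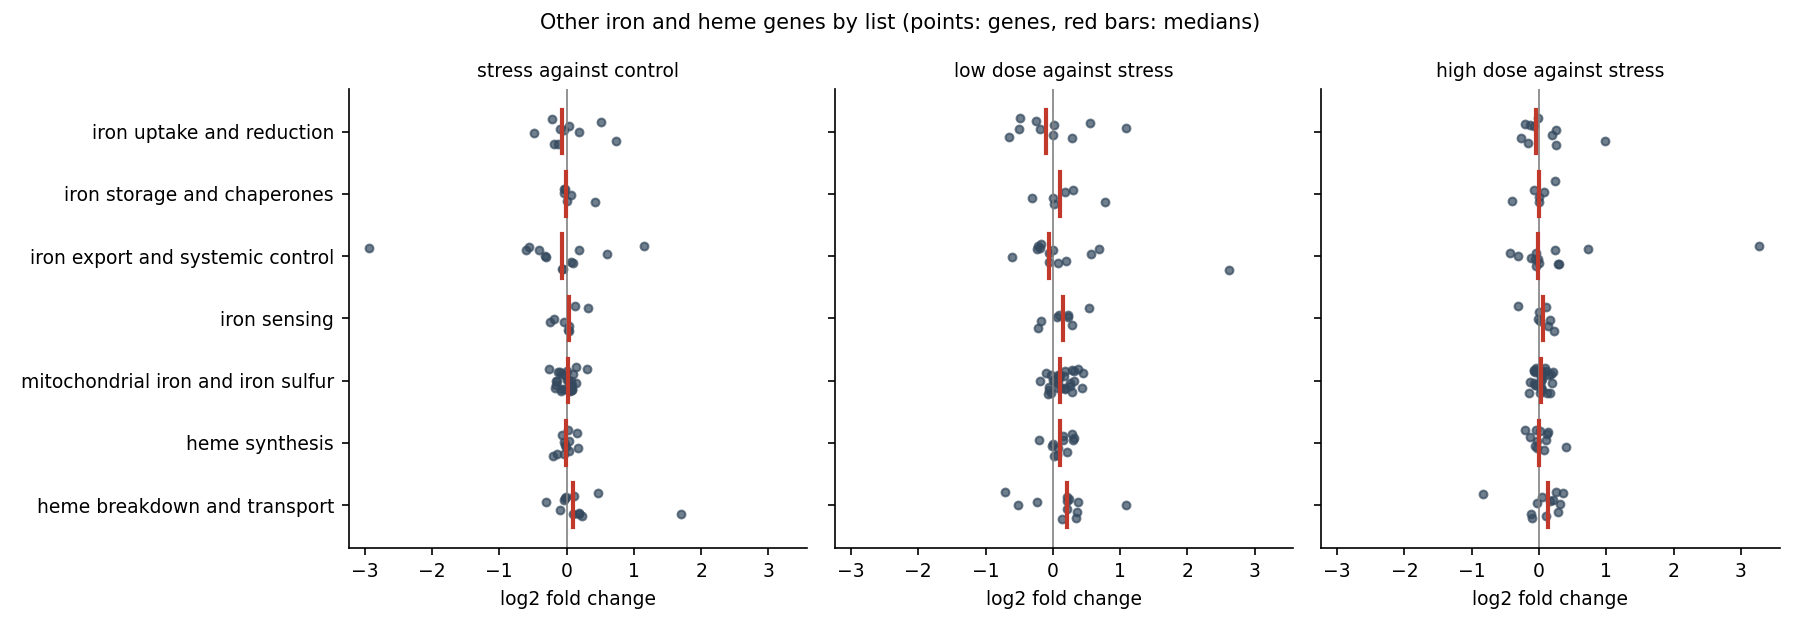
Log2 fold changes of 90 tested iron and heme genes that are not members, in 7 lists by function, for 3 comparisons. Points are genes and red bars list medians, which lie between -0.10 and 0.21. The point farthest out in each panel is Hjv, a gene with at most 1.71 TPM. It had 1.27, 1.09 and 1.71 TPM in control replicate 1, low-dose replicate 3 and high-dose replicate 2, the libraries rich in skeletal muscle transcripts. Elsewhere it had at most 0.24 TPM.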

How the data were processed

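RNA was sequenced from 12 tumour libraries in 4 groups of 3. Per the labels, total RNA with a RIN above 7 was selected for poly(A), made into stranded libraries and read in pairs. Per the submitters' processing notes, cutadapt 1.9, HISAT2 2.0.4, StringTie 1.3.4d, DESeq2 and edgeR were used with GRCm38.p6; counting options, strand setting and filters were not given in the sources used here. The authors deposited estimated counts per gene, unscaled, and FPKM and TPM values, both scaled for length and library size. Estimated counts were rounded here.

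Of the genes, 13453 passed filterByExpr (minimum count 10). Quasi-likelihood tests of edgeR 4.0.16 (R 4.3.3, 2-sided, TMM scaling) were run in 1 model of 4 groups, with p-values adjusted over all genes tested. The members and all lists were chosen with earlier results of these data known. Of other iron and heme genes, those with the 4 smallest p-values per comparison are named where none passed; the 5 genes most like Tfrc and Hmox1 were taken by r, and a gene or result left out of these lists is not reported here. Deposited FPKM served for the order of levels. Of the tables' genes, 17820 were matched by Entrez ID to RefSeq. Listed genes without a match were not analysed here.

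Alternatives were DESeq2 1.42.0, limma 3.58.1 (voom with quality weights, and log2(TPM + 1)), RLE factors, other filters, 6 libraries only, a replicate block, a muscle score, and each library left out. A red blood cell score and removal of length and GC trends by loess were added after the data were seen. On simulated data for stress against control (13357 genes), the calls held 22.4% of the genes set to 1.5-fold, 74.2% of those set to 2-fold, 87.5% of those set to 4-fold, and 7 unchanged genes. The simulated counts varied independently by gene, with no trend in length or tissue content shared within a library. These shares therefore do not give the chance of a call in the real libraries. Depth, 16734741 to 17950195 counts per library, leaves counting error small except for Slc40a1. Pairs of libraries of a group had a chi-square per degree of freedom of 6.34 to 77.1, so none agreed within counting noise.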

Additional observations from a re-analysis of the deposited data

How the results depend on the processing

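Of 216 counts of called members or other iron and heme genes under alternative settings, 213 were the same as the count given. The exceptions all left out 1 library, low-dose replicate 1: the calls were then 1 of 8 members and 10 other iron and heme genes at the low dose against stress, and 4 at the low dose against control, where leaving out any other library gave 0. Of 1066 alternative fold changes of members, 1005 lay within 1 SE of the value given. The opposite sign, or a value that rounded to 0.00, was found in 66, none of them called. With 1 library left out, its group held 2, and all groups shared 1 estimate of the spread. The replicate block, with the replicate number as a term, gave 0 calls in each of the 12 counts and log2 fold changes of Tfrc of 1.04, -1.41 and -1.46 in stress against control and at the low and high dose against stress. Libraries of the same number did not pair: the correlation of their deviations from the group means ran from -0.451 to 0.415 over 18 pairs, and 5 of 12 libraries correlated best with their own number. On log2(TPM + 1) the median of all genes at the low dose against stress was -0.146. There the value of 0.09 (SE 0.14) for Steap3 stood above that shift, and -0.23 (SE 0.15) for Aco1 lay within 1 SE of it. In edgeR's fit the value for Aco1, -0.08, turned to 0.04 without low-dose replicate 2. Deposited FPKM gave the same rank as TPM for all 40 ranks of members in groups. With CPM in place of TPM the log2 ratio of Tfrc to Hmox1 was 1.82 to 1.85 higher in every library, since CPM is not divided by length, and ran from -1.59 to 3.44. Depth limits Slc40a1, with 4 to 111 counts, and 3 libraries per group limit all tests.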

Other observations

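Other genes of oxidative stress and oxygen supply were listed beside the members, and none was called by edgeR's quasi-likelihood test. Of 20 targets of the factor Nrf2, which also drives Hmox1 and ferritin genes, 16 had values above 0 at the low dose against stress, with a median log2 fold change of 0.12. At the high dose against stress 16 of 20 were above 0, with a median of 0.15. The median of all 13453 genes was 0.00 in both, and 6717 and 6584 of them were above 0. The smallest p-values at the low dose belonged to Prdx1 (0.36, SE 0.12), Taldo1 (0.38, SE 0.13), Pgd (0.34, SE 0.11) and Srxn1 (0.28, SE 0.11), with adjusted p of 0.301 to 0.34, and these genes were picked after their values were seen. Both comparisons share the stress libraries. Other targets had lower means: Nqo1 had 16.85 TPM in stress, 11.66 at the low dose and 14.14 at the high dose. Slc7a11 had 18.14, 12.95 and 16.79 TPM in the same order, and libraries of these groups overlapped for both genes.

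Of 14 hypoxia targets, 13 were below 0 in stress against control, with a median of -0.36. Of all 13453 genes, 6495 were below 0 there, with a median of 0.01. Against stress, 12 were above 0 at each dose, with a median of 0.61 at the low dose and 0.10 at the high dose, and these 3 comparisons share the stress libraries. Against control, 11 were above 0 at the low dose (median 0.21) and 0 at the high dose (median -0.21), beside 6800 and 6796 of all genes. Their summed TPM was 812 and 772 in stress replicates 1 and 3 and 972 to 1978 in the control and XCHT libraries. Stress replicate 2 went the other way, at 1605, above all libraries but low-dose replicate 3. Of 15 tested ferroptosis genes, 13 were above 0 at the low dose against stress (median 0.18) and 7 at the high dose (median -0.01). Of 12 proliferation genes, 7 and 6 were above 0, with medians of 0.06 and 0.02. Of all genes, 6717 and 6584 were above 0 at the low and high dose against stress.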
